A study of Homo sapiens with 6 samples.

Results

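The genes described here are 10 markers of fibroblasts and of the epicardium (WT1, TCF21, TBX18, PDGFRA, PDGFRB, DDR2, DCN, LUM, THY1 and VIM), read as a sign of stromal cells in cultures of cardiomyocytes. They were matched by symbol, a rule that uses no measured value although earlier results of these data were known, and all 10 were listed among the 21134 genes of the series. RNA was sequenced from 3 groups of hiPSC-CMs with 2 libraries each. The control cells received neither alcohol nor losartan, the alcohol group received 100 mM alcohol for 24 h, and the co-treated group received 100 mM alcohol together with 1 μM losartan, a blocker of the angiotensin II receptor AT1R, for 24 h. All groups come from 1 cell line. The labels call it H9, the name of an established human embryonic stem cell line, and yet describe the cells as induced pluripotent. The cardiomyocytes were made with small molecules that first activate and then block Wnt signalling, the first of them given together with Activin A. The study's methods describe no step that selects cardiomyocytes or removes other cells. Nothing in the sources used here says that the 2 libraries of a group came from separate cultures, so p-values measure only the spread between these libraries, which may be technical.

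The epicardium is the sheet of mesothelial cells that covers the heart. During development some of its cells leave the sheet, migrate into the muscle and become fibroblasts and mural cells of the coronary vessels. Cardiac fibroblasts make and maintain the collagen matrix, and they are recognised by growth factor and collagen receptors, by matrix proteoglycans and by the intermediate filament vimentin. Cultures differentiated from pluripotent stem cells can hold such cells beside cardiomyocytes.

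Levels are given as FPKM, the authors' read estimate divided by transcript length and by the mapped reads of the library, and as the expected count, the estimate itself. Library totals of the expected counts ran from 4898287 to 5051448. A floor of 3 counts then corresponds to 0.594 to 0.612 CPM, counts scaled to the library total, and this floor and the Poisson intervals below cover counting error only. Replicate libraries differed by 4.46 to 7.30 times their counting noise over all genes (chi-square per degree of freedom), and none was a repeat of another. Markers of the labelled cell type were abundant. MYL7, the gene of the atrial myosin light chain, was at 9321 to 16180 FPKM, MYL4 at 4187 to 5749 FPKM and cardiac troponin T (TNNT2) at 3194 to 3728 FPKM.

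Of the 10 marker genes, VIM was abundant in every library, 5 more were at intermediate levels and 4 were low. The mean FPKM over the 6 libraries was 607 ± 67.8 for VIM, 17.7 ± 2.15 for PDGFRA, 10.5 ± 2.80 for TBX18, 8.58 ± 1.10 for LUM, 6.17 ± 1.26 for DCN and 3.11 ± 0.67 for DDR2 (SD, n = 6). The low genes were PDGFRB at 1.40 ± 0.17, THY1 at 0.94 ± 0.51, TCF21 at 0.46 ± 0.32 and WT1 at 0.43 ± 0.28 FPKM (SD, n = 6). Along this order, neighbouring genes had ranges that did not overlap at 2 places only, between VIM and PDGFRA and between DDR2 and PDGFRB. PDGFRA was above TBX18 in 6 of 6 libraries although their ranges overlapped, TBX18 was above LUM in 4 of 6, and TCF21 was above WT1 in 3 of 6. These genes are different in length and the order therefore holds for FPKM, which is scaled by length.

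**Figure D1:**
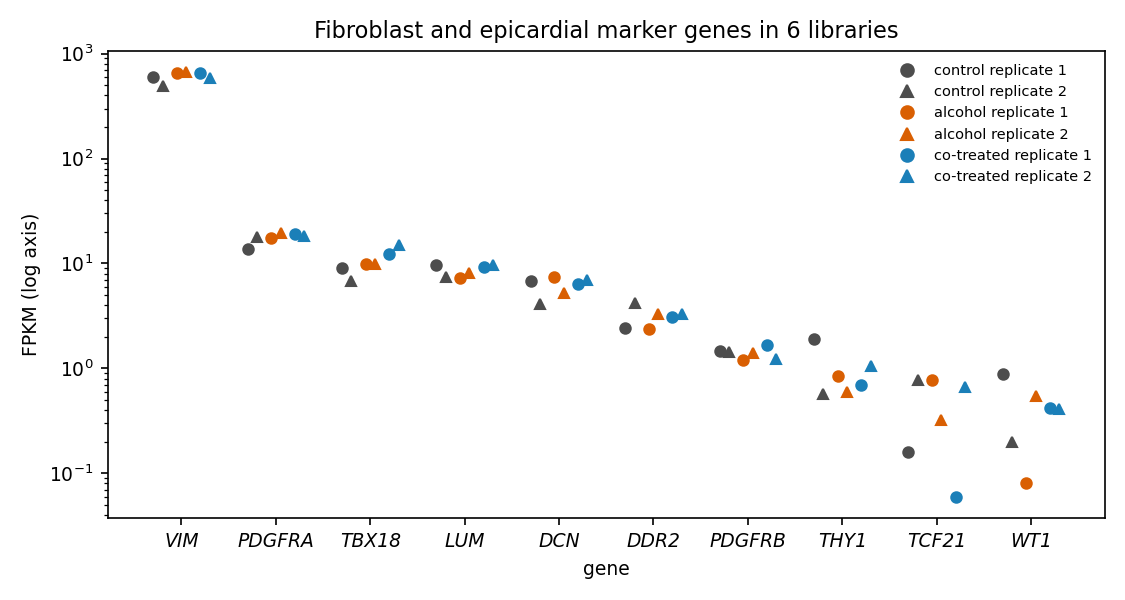
FPKM on a log axis of the 10 fibroblast and epicardial marker genes in the 6 libraries, with 1 point per library, colour for the group and shape for the replicate. VIM sits between 490 and 669 FPKM, far above PDGFRA at 13.6 to 19.7 FPKM, while WT1 and TCF21 fall below 1 FPKM in every library and scatter over more than 10-fold.

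The epicardial transcription factors stood far apart from each other. TBX18, a T-box factor of the epicardium and of the sinus node region, lies on chr6:84732496-84764598 (GRCh38). TCF21, a basic helix-loop-helix factor needed for cardiac fibroblasts to form from the epicardium, lies on chr6:133889113-133895537. WT1, a zinc finger factor of the epicardium and kidney, lies on chr11:32387775-32435539. The 250 bases before the RefSeq start of TBX18 and of TCF21 are shown because the first gene was read in 212 to 462 counts and the second in 1 to 9, and those of VIM, the most abundant marker, are shown for comparison (GRCh38.p14, each 5′ to 3′ on the strand of its gene, minus for TBX18 and plus for the others). Capitals mark the GC box GGGCGG, the CCAAT box and the TATA box TATAAA wherever these letters occur on either strand.
TBX18 chr6:84764599-84764848: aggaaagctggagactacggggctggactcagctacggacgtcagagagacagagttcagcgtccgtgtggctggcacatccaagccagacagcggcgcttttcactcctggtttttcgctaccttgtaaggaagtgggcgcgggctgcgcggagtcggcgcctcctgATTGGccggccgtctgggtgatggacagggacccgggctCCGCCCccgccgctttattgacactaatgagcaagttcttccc
TCF21 chr6:133888863-133889112: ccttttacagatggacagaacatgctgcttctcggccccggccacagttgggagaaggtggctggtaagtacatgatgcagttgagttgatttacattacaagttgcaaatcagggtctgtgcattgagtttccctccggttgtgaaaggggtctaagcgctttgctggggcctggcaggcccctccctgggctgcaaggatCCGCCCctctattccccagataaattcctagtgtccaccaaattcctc
VIM chr10:17227991-17228240: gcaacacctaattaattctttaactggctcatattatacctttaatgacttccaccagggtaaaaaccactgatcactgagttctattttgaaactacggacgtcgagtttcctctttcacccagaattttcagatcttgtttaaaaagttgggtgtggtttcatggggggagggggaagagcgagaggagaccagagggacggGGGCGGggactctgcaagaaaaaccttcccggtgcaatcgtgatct
Each window holds 1 GC box, and that of TBX18 also holds 1 CCAAT box. Of all 35097 RefSeq promoter windows of this length, 42.6% hold a GC box, 32.0% a CCAAT box and 10.7% a TATA box. The G and C content was 61.6% for TBX18, 52.8% for TCF21 and 46.0% for VIM, against a median of 58.0% over all windows. RefSeq gave a window for 7 of the 10 genes, and the matches are a description of the letters only.

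TBX18 was read at 9.14 and 6.87 FPKM in the control libraries, 9.98 and 9.92 FPKM in the alcohol libraries and 12.3 and 15.0 FPKM in the co-treated libraries. Both co-treated libraries were above all others, and control replicate 2 was the lowest. The expected counts were 283 and 212 in control, 309 and 298 in alcohol and 369 and 462 in co-treated cells. The 95% Poisson intervals of the co-treated counts, 332 to 409 and 421 to 506, lay above those of the control counts, 251 to 318 and 184 to 243. In a bulk sample, fewer cells of a type and less RNA per cell cannot be told apart.

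TCF21 was close to the floor, at 0.16 and 0.78 FPKM in control, 0.78 and 0.32 FPKM in alcohol and 0.06 and 0.67 FPKM in co-treated cells. These values stand for 2 and 6, 9 and 2, and 1 and 8 counts. In every group 1 library was at or below 3 counts, and the groups overlapped.

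WT1 was equally low, at 0.89 and 0.20 FPKM in control, 0.08 and 0.55 FPKM in alcohol and 0.42 and 0.41 FPKM in co-treated cells. Control replicate 1 held the most with 11.0 counts, and the other libraries held 3, 1, 8, 6 and 5. The epicardial marker WT1 therefore held at least 1 count in every library, but no more than 11.0. Alcohol replicate 1 was below the floor of 3 counts and control replicate 2 was at it. TBX18 was 10.3 to 125 times the FPKM of WT1 and 8.81 to 205 times that of TCF21 within the same library, with medians of 31.8 and 26.7. Ratios against a gene of so few counts are imprecise. In the control libraries alone the ratio of TBX18 to TCF21 was 57.1 and 8.81.

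**Figure D2:**
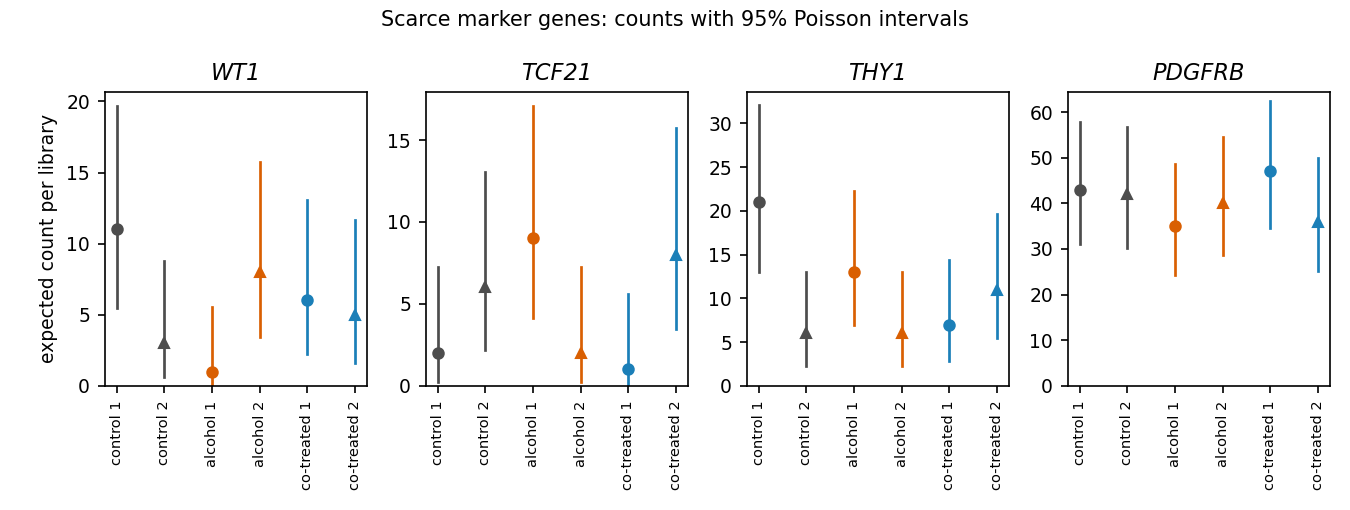
Expected count with its 95% Poisson interval in each library for the marker genes with the fewest counts. WT1 and TCF21 hold 1 to 11.0 counts with intervals that overlap between all libraries, and THY1 is highest in control replicate 1, at 21 counts against 6 to 13 elsewhere.

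Among the receptor tyrosine kinases PDGFRA dominated. PDGFRA, on chr4:54229293-54298245, is the receptor for platelet-derived growth factor (PDGF) often used to find cardiac fibroblasts. It was at 13.6 and 17.9 FPKM in control, 17.4 and 19.7 FPKM in alcohol and 19.2 and 18.2 FPKM in co-treated cells. Control replicate 1 was the lowest library, the co-treated libraries were above both control libraries, and the alcohol libraries overlapped with both other groups.

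PDGFRB, on chr5:150113839-150155845, is the PDGF receptor of pericytes and smooth muscle as well as of fibroblasts. It was at 1.47 and 1.44 FPKM in control, 1.20 and 1.41 FPKM in alcohol and 1.66 and 1.24 FPKM in co-treated cells, or 35 to 47 counts. Both alcohol libraries were just below the control libraries, and the co-treated libraries spanned them. PDGFRA was 9.27 to 14.7 times the FPKM of PDGFRB, in 6 of 6 libraries.

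DDR2, on chr1:162630863-162787405, is a receptor activated by fibrillar collagen. It was at 2.42 and 4.18 FPKM in control, 2.36 and 3.33 FPKM in alcohol and 3.08 and 3.31 FPKM in co-treated cells. The 2 control libraries were the widest pair, and all groups overlapped. PDGFRA was 4.29 to 7.35 times the FPKM of DDR2.

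The small leucine-rich proteoglycans decorin (DCN) and lumican (LUM) bind collagen fibrils, and their genes are neighbours on chromosome 12 at chr12:91140484-91182817 and chr12:91102629-91111494, with 28989 bases between them. DCN was at 6.77 and 4.10 FPKM in control, 7.51 and 5.27 FPKM in alcohol and 6.42 and 6.93 FPKM in co-treated cells. LUM was at 9.74 and 7.42 FPKM in control, 7.31 and 8.11 FPKM in alcohol and 9.28 and 9.60 FPKM in co-treated cells. LUM was higher in both co-treated than in both alcohol libraries, and DCN overlapped between all groups. LUM exceeded DCN in 5 of 6 libraries, with a ratio of 0.973 to 1.81, and COL1A1, which encodes the main chain of type I collagen, was 16.2 to 29.1 times the FPKM of DCN.

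THY1, on chr11:119415476-119424985, encodes the surface glycoprotein CD90 of fibroblasts and other mesenchymal cells. It was at 1.91 and 0.57 FPKM in control, 0.85 and 0.59 FPKM in alcohol and 0.69 and 1.05 FPKM in co-treated cells. By FPKM control replicate 1 was the highest and control replicate 2 the lowest of all 6, so the control pair spanned both treated groups. In counts control replicate 2 and alcohol replicate 2 were level, at 6 each.

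VIM, on chr10:17228241-17237593, encodes vimentin, the intermediate filament of mesenchymal cells, which many other cells in culture also make. It was at 597 and 490 FPKM in control, 657 and 669 FPKM in alcohol and 651 and 580 FPKM in co-treated cells. Both alcohol libraries were above all others, control replicate 2 was the lowest, and the co-treated libraries overlapped with control. VIM ranked at percentile 99.4 to 99.6 among the genes detected in a library and made up 91.1% to 93.3% of the summed FPKM of the 10 genes. It was 27.3 to 43.9 times PDGFRA and 0.135 to 0.204 times TNNT2.

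Some of these genes share their place with an antisense gene. VIM-AS1 runs against VIM, shares 641 exon bases with it and held 1788 and 1546 counts in control, 2019 and 1973 in alcohol and 1995 and 1178 in co-treated cells. WT1-AS shares 113 exon bases with WT1 and held 11.0 to 31.6 counts, more than WT1 itself in every library. Whether the counting used strand is not given in the sources used here, and without strand reads that lie within the shared bases cannot be told apart. These are a part of the 5158 exon bases of VIM and the 4113 of WT1 in GENCODE 29. The overlap of the transcripts that the authors counted was not computed. The transcript length that the authors' counting used for FPKM also varied between libraries for 5 genes, from 1285 to 3249 bases for TCF21, 2080 to 3008 bases for THY1 and 2438 to 2977 bases for WT1, and by less for DDR2 and DCN. The FPKM of TCF21 and WT1 is therefore not a fixed multiple of the count.

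The first question was whether alcohol changed the markers. Rounded expected counts of all 6 libraries entered a single edgeR quasi-likelihood fit with a two-sided test, and p-values were adjusted by Benjamini-Hochberg over the 14926 genes that passed an expression filter. WT1 and TCF21 did not pass the filter, which left 8 of the 10 genes. Between alcohol and control, 0 of these 8 had an adjusted p under 0.05, where 0.067% of all genes tested did. The count at an unadjusted p under 0.05 was also 0 of 8, against 11.0% of all genes, and DESeq2 called 0 as well. The groups did not overlap for VIM and TBX18 (higher in alcohol) and PDGFRB (lower), 3 of 8 genes, against 42.4% of all genes, 24.7% higher and 17.7% lower.

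By edgeR's test the log2 fold change in alcohol was 0.25 for VIM (95% interval -0.05 to 0.54, adjusted p = 0.553), 0.27 for TBX18 (-0.09 to 0.63, adjusted p = 0.597) and 0.19 for PDGFRA (-0.10 to 0.48, adjusted p = 0.667). The interval of DCN was -0.33 to 0.73 around 0.20, that of LUM -0.65 to 0.25 around -0.20, that of DDR2 -0.90 to 0.39 around -0.25 and that of PDGFRB -0.82 to 0.42 around -0.20. THY1, with the fewest counts of the genes tested, had the widest interval, -1.94 to 0.90 around -0.52. The intervals of the 8 genes all include 0, and those of all but THY1 lie within 1 of 0 on the log2 scale. The median of the 8 log2 fold changes was -0.0034, and that of all genes tested was -0.0033.

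The second question was how cells given alcohol with losartan differed from control cells. These values share the control libraries with the comparison above. Again 0 of 8 genes had an adjusted p under 0.05 by edgeR, against 0.362% of all genes tested. TBX18 alone, 1 of 8, had an unadjusted p under 0.05, against 12.6% of all genes. TBX18 was 1.65 times the control level (95% interval 1.29 to 2.11), a log2 fold change of 0.72 ± 0.16 (SE), with an unadjusted p of 0.00068 and an adjusted p of 0.0787 by edgeR. Both co-treated libraries were higher than both control libraries. DESeq2 gave TBX18 an adjusted p of 0.0460, which was the only alternative of 14 below 0.05. With all 6 libraries in the fit, the adjusted p ranged from 0.0460 by DESeq2 to 0.179 by limma on log2(FPKM + 0.1). By edgeR the log2 fold change was 0.96 when control replicate 1 was left out and 0.52 when control replicate 2 was. Leaving out replicate 1 or 2 of the co-treated cells gave 0.87 or 0.56. The log2 fold change was 0.52 to 0.96 over all alternatives.

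**Figure D3:**
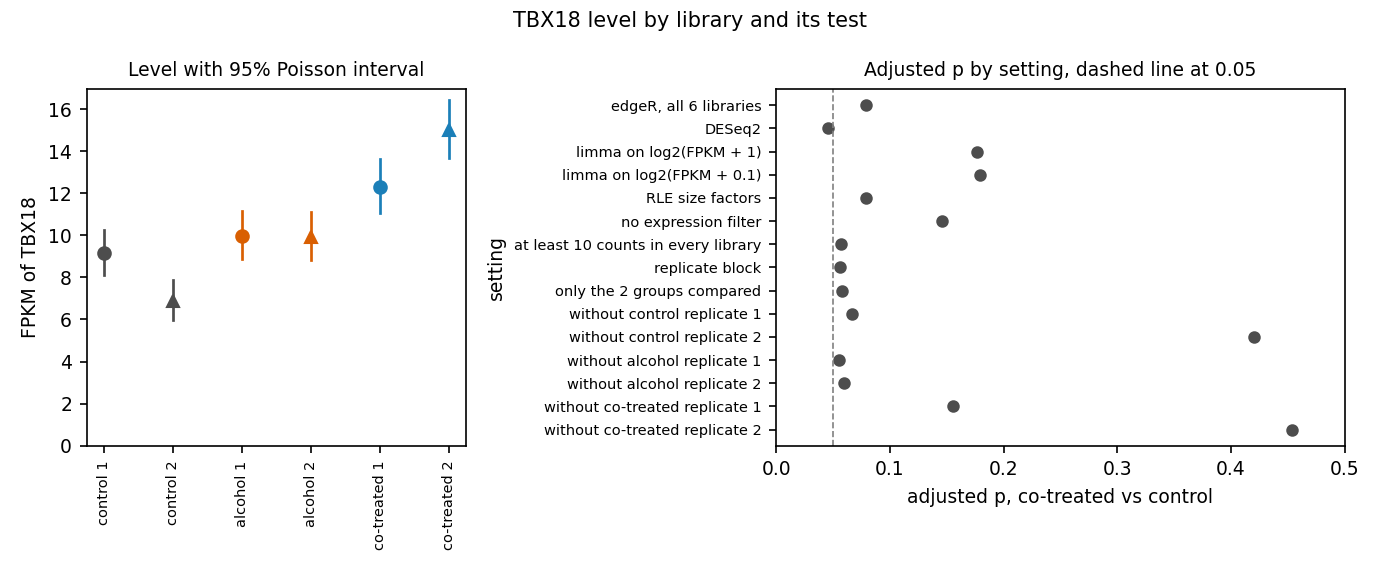
Left, FPKM of TBX18 in each library with its 95% Poisson interval, which covers counting error only. Right, adjusted p of TBX18 between co-treated and control cells under the main setting (edgeR, all 6 libraries) and each alternative, with a dashed line at 0.05. The co-treated libraries sit at 12.3 and 15.0 FPKM above all others, and DESeq2 alone falls left of the line.

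The other genes had intervals that include 0 in this comparison. The log2 fold change was 0.20 for PDGFRA (-0.09 to 0.49), 0.13 for VIM (-0.17 to 0.43), 0.25 for DCN (-0.28 to 0.77) and 0.09 for LUM (-0.35 to 0.53). DDR2 was at -0.08 (-0.72 to 0.56), PDGFRB at -0.06 (-0.67 to 0.55) and THY1 at -0.60 (-2.04 to 0.83). The groups did not overlap for TBX18 and PDGFRA, both higher in co-treated cells, against 43.4% of all genes in either direction and 27.1% higher. The median of the 8 genes was 0.11, and that of all genes tested -0.0017.

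The third question was what losartan added to alcohol. Between co-treated and alcohol cells 0 of 8 genes had an adjusted p under 0.05 by edgeR, against 0.0134% of all genes, and DESeq2 called 0 too. TBX18 was again the only gene with an unadjusted p under 0.05, against 5.55% of all genes. Its log2 fold change was 0.45 ± 0.16 (SE, 95% interval 0.10 to 0.80), a ratio of 1.37, with an unadjusted p of 0.0152 and an adjusted p of 0.843 by edgeR. LUM was at 0.29 (-0.16 to 0.73), VIM at -0.12 (-0.41 to 0.18) and PDGFRA at 0.01 (-0.28 to 0.30) on the log2 scale. DCN was at 0.04 (-0.48 to 0.57), DDR2 at 0.18 (-0.47 to 0.83), PDGFRB at 0.14 (-0.47 to 0.76) and THY1 at -0.08 (-1.59 to 1.42). The groups did not overlap for TBX18 and LUM (higher in co-treated cells) and VIM (lower), 3 of 8 genes, against 32.3% of all genes, 18.0% higher and 14.3% lower. Exact permutation of 2 against 2 libraries cannot give 1 gene a two-sided p below 0.333, and the p-values above draw on a spread pooled over genes.

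**Figure D4:**
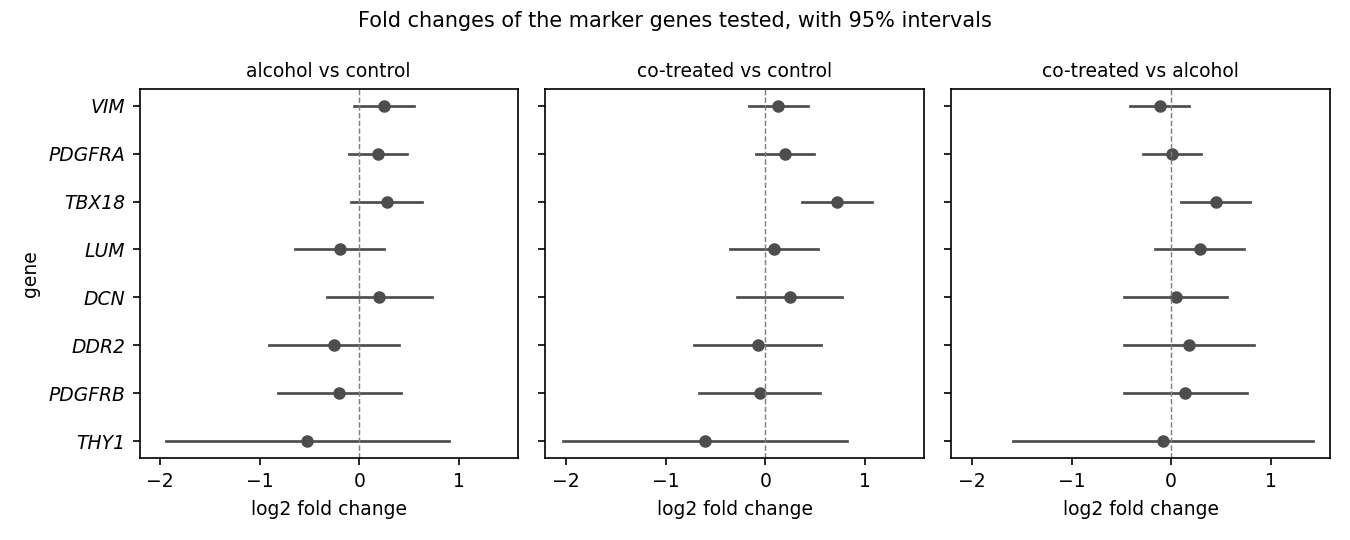
Log2 fold change with its 95% interval by edgeR for the 8 marker genes tested, in the 3 comparisons, with a line at 0. The intervals of TBX18 between co-treated and control cells (0.37 to 1.07) and between co-treated and alcohol cells (0.10 to 0.80) are the ones that leave out 0, and THY1 has the widest.

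WT1 and TCF21 were tested only with no expression filter, where each fold change rests on few counts. TCF21 then had log2 fold changes of 0.45 for alcohol against control and 0.14 for co-treated against control, and WT1 of -0.64 and -0.37. No adjusted p-value of either gene by edgeR was below 0.867. The size of change that so few counts could show was not computed.

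Other genes of the same cells and pathways give the setting. Of 15 further epicardial and mesothelial genes 14 were listed and 9 tested, and 0 were called by edgeR in any comparison. At an unadjusted p under 0.05 the edgeR counts were 1, 0 and 2 of 9, against 11.0%, 12.6% and 5.55% of all genes. SEMA3D was higher in alcohol than in control cells (log2 fold change 0.46). Between co-treated and alcohol cells SEMA3D (-0.59) and GATA5 (-0.45) were lower, where TBX18 was higher. The most abundant were the keratin KRT19 at 57.0 to 123 FPKM, LRRN4 at 8.58 to 12.3 FPKM and GATA5, a transcription factor of early heart cells, at 7.04 to 13.0 FPKM. The median log2 fold change of the list was 0.04 for alcohol and -0.13 for co-treated against control cells.

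Of 20 further fibroblast genes, all listed, 16 were tested, and 2 were called, both higher in each treated group than in control. At an unadjusted p under 0.05 the edgeR counts were 5, 7 and 0 of 16 for the 3 comparisons in turn, against 11.0%, 12.6% and 5.55% of all genes. Against control, 3 were higher and 2 lower in alcohol, and 4 were higher and 3 lower in co-treated cells. The lower genes in co-treated cells were FN1 (log2 fold change -0.46), CDH11 (-0.52) and VCAN (-0.42), none with an adjusted p under 0.05. MFAP4, a microfibril-associated glycoprotein, was at 26.7 and 25.0 FPKM in control, 50.7 and 66.9 FPKM in alcohol and 54.0 and 53.6 FPKM in co-treated cells. It rose by 1.14 ± 0.14 in alcohol (SE, log2, edgeR adjusted p = 0.0116) and by 1.01 ± 0.14 in co-treated cells (adjusted p = 0.0108). COL14A1, which encodes a collagen that associates with fibrils, was at 6.94 and 5.32 FPKM in control, 12.8 and 20.9 FPKM in alcohol and 15.1 and 15.8 FPKM in co-treated cells. It rose by 1.41 ± 0.20 in alcohol (SE, log2, edgeR adjusted p = 0.0247) and by 1.28 ± 0.20 in co-treated cells (adjusted p = 0.0203). The edgeR call in alcohol was lost, among other cases, without control replicate 2 (adjusted p = 0.0559 for MFAP4 and 0.0847 for COL14A1) and without alcohol replicate 2 (0.103 and 0.117). That in co-treated cells was lost without control replicate 2 (0.0669 and 0.0858), co-treated replicate 1 (0.110 and 0.137) or co-treated replicate 2 (0.225 and 0.346), with log2 fold changes of 0.95 or more throughout. The list as a whole had a median log2 fold change of 0.09 in alcohol and -0.02 in co-treated cells, with 9 of 16 and 8 of 16 genes above 0. Its most abundant genes were S100A4, which encodes a calcium-binding protein, at 245 to 469 FPKM, the matrix proteoglycan gene VCAN at 148 to 213 FPKM and the collagen gene COL3A1 at 145 to 188 FPKM.

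For the receptors, all 4 PDGF ligand genes were tested and 0 were called in any comparison, nor had any an unadjusted p under 0.05 by edgeR. PDGFD was the most abundant at 15.1 to 20.7 FPKM, PDGFC was at 5.66 to 6.83 FPKM and PDGFA at 2.52 to 5.12 FPKM. Beside DCN and LUM, 8 of 11 other small leucine-rich proteoglycan genes were listed, led by TSKU at 5.58 to 8.04 FPKM, BGN at 4.94 to 7.79 FPKM and FMOD at 2.05 to 4.16 FPKM, all near the levels of DCN and LUM or below. Of these 7 were tested and 0 called by edgeR. At an unadjusted p under 0.05 the edgeR counts were 2, 0 and 0 of 7, against 11.0%, 12.6% and 5.55% of all genes.

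Of the other intermediate filament genes, 7 of 8 were listed, 6 were tested and 0 were called by edgeR. At an unadjusted p under 0.05 the edgeR counts were 2, 4 and 2 of 6, all lower, against 11.0%, 12.6% and 5.55% of all genes. The 4 in co-treated against control cells were NES (log2 fold change -0.81, edgeR adjusted p = 0.0621), LMNA (-0.61, 0.0600), KRT8 and KRT18. The keratin gene KRT8 was at 328 to 599 FPKM, the muscle desmin gene DES at 269 to 377 FPKM and KRT18 at 193 to 382 FPKM. KRT8 was at 599 and 572 FPKM in control but 382 and 343 FPKM in co-treated cells (log2 fold change -0.74, edgeR adjusted p = 0.0946). The ratio of VIM to KRT8 was 0.997 and 0.856 in control, 1.33 and 2.04 in alcohol and 1.70 and 1.69 in co-treated cells, and VIM was 1.50 to 2.49 times DES.

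Summed over the 10 genes, the FPKM was 643 and 533 in control, 705 and 718 in alcohol and 704 and 637 in co-treated cells. Without VIM the sums were 46.1 and 43.5, 47.4 and 49.2, and 53.1 and 56.4 FPKM, so the group with the highest sum differs with VIM in or out. The 14 cardiomyocyte markers summed to 34467 and 33751 FPKM in control, 33571 and 25205 FPKM in alcohol and 28646 and 31148 FPKM in co-treated cells. The 10 genes are not in that sum, and the ratio of their sum to it was 1.87% and 1.58% in control, 2.10% and 2.85% in alcohol and 2.46% and 2.04% in co-treated cells, and without VIM 0.134% and 0.129% in control, 0.141% and 0.195% in alcohol and 0.185% and 0.181% in co-treated cells. With or without VIM, each treated library was above both control libraries in this ratio of FPKM, which was not tested. In CPM without VIM this did not hold, with 0.383% in alcohol replicate 1 against 0.388% in control replicate 2. MYL7, the most abundant cardiomyocyte marker, weighs most in their FPKM sum. Its mean was 15346 FPKM in control, 10967 FPKM in alcohol and 11043 FPKM in co-treated cells. In CPM the 14 markers summed to 61389 and 56685 in control, 63715 and 53094 in alcohol and 58350 and 58605 in co-treated cells. These CPM sums overlapped between groups. All 14 cardiomyocyte markers were tested and 0 were called by edgeR in any comparison. At an unadjusted p under 0.05 the edgeR counts were 2, 5 and 2 of 14, against 11.0%, 12.6% and 5.55% of all genes. The markers so counted were all lower except RYR2 in co-treated against control cells (log2 fold change 0.29).

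Among 10 markers of smooth muscle and pericytes, all tested, edgeR called 1, ACTA2, between co-treated and control cells and 0 in the other comparisons. At an unadjusted p under 0.05 the counts were 5, 6 and 1 of 10 for the 3 comparisons in turn, against 11.0%, 12.6% and 5.55% of all genes. Against control, 5 were lower in alcohol, and 4 were lower and 2 higher in co-treated cells. The 10 genes summed to 2083 and 1849 FPKM in control, 1592 and 856 FPKM in alcohol and 1115 and 1168 FPKM in co-treated cells. TAGLN was at 340 to 998 FPKM and CNN1 at 177 to 422 FPKM. ACTA2, the smooth muscle actin gene that early cardiomyocytes and activated fibroblasts also express, was at 507 and 580 FPKM in control, 337 and 203 FPKM in alcohol and 248 and 224 FPKM in co-treated cells. It fell by 1.25 on the log2 scale between control and co-treated cells (edgeR adjusted p = 0.0203), and the adjusted p was 0.0687 without control replicate 2, and 0.155 and 0.353 when co-treated replicate 1 or 2 was left out. The other genes of the list with an unadjusted p under 0.05 in co-treated against control cells went both ways and were named after their values were seen. TAGLN (log2 fold change -0.97, edgeR adjusted p = 0.127), MCAM (-0.82, 0.0973) and RGS5 (-0.58, 0.123) were lower, and KCNJ8 and ABCC9, which encode subunits of a potassium channel of pericytes and heart muscle, were higher. KCNJ8 was at 7.32 and 7.09 FPKM in control against 12.3 and 13.5 FPKM in co-treated cells (log2 fold change 0.79, edgeR adjusted p = 0.0787), and ABCC9 at 11.3 and 10.9 against 16.2 and 18.5 FPKM (0.60, adjusted p = 0.0885). The part of smooth muscle cells and pericytes in the values of TBX18 was not tested.

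Markers of other cells were low beside those of cardiomyocytes. The endoderm list, at 42.4 to 58.9 FPKM in sum, was near the 10 genes without VIM, at 43.5 to 56.4 FPKM. The 8 endothelial markers summed to 7.75 and 6.62 FPKM in control, 8.60 and 9.23 FPKM in alcohol and 9.62 and 11.6 FPKM in co-treated cells, with all treated libraries above both control libraries. KDR, a receptor of vascular endothelial growth factor, was at 4.00 and 3.70 FPKM in control, 5.18 and 6.53 FPKM in alcohol and 6.67 and 7.70 FPKM in co-treated cells (log2 fold change 0.86 for co-treated against control, edgeR adjusted p = 0.0502), in the same order of groups as TBX18. KDR was the largest part of these sums. TEK was at 0.93 to 1.94, PECAM1 at 0.44 to 0.76, CDH5 at 0.20 to 0.78 and VWF at no more than 0.11 FPKM. In alcohol and in co-treated against control cells the log2 fold change was -0.45 and -0.41 for TEK and -0.02 and -0.49 for TIE1. It was -0.17 and 0.08 for PECAM1 and 0.20 and 1.08 for CDH5, so the other markers tested did not all follow KDR. None of these had an unadjusted p under 0.05 by edgeR. The part of endothelial cells in the values of TBX18 was not tested. The 4 blood markers listed summed to 3.12 to 4.12 FPKM, led by CD68 at 1.72 to 3.13 and PTPRC at 0.98 to 2.08 FPKM, with CD14 at no more than 0.27 FPKM. The 8 endoderm markers summed to 44.2 and 42.4 FPKM in control, 54.3 and 58.9 FPKM in alcohol and 57.7 and 54.0 FPKM in co-treated cells. All treated libraries were again above control in this sum, which was not tested. AFP led at 20.4 to 28.4, with APOA1 at 13.1 to 22.3 and FGB at 3.55 to 6.32 FPKM. In alcohol and in co-treated against control cells the log2 fold change was 0.11 and 0.25 for AFP and 0.64 and 0.33 for APOA1. It was -0.0048 and 0.12 for FGB and -0.08 and -0.12 for ALB. The 6 neural markers summed to 7.48 to 10.7 FPKM, led by TUBB3 at 5.25 to 7.30, STMN2 at 0.71 to 1.74 and MAP2 at 0.45 to 2.14 FPKM. The 6 pluripotency markers summed to 14.5 to 23.0 FPKM, led by POU5F1 at 3.95 to 10.2, NANOG at 2.54 to 5.50 and ZFP42 at 2.58 to 3.64 FPKM. In these 5 lists edgeR called 0 genes in any comparison. Of their genes that passed the filter 3, 2 and 0 had an unadjusted p under 0.05, against 11.0%, 12.6% and 5.55% of all genes. They were KDR and APOA1 (higher) and MAP2 (lower) in alcohol, and KDR (higher) and MAP2 (lower) in co-treated against control cells.

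**Figure D5:**
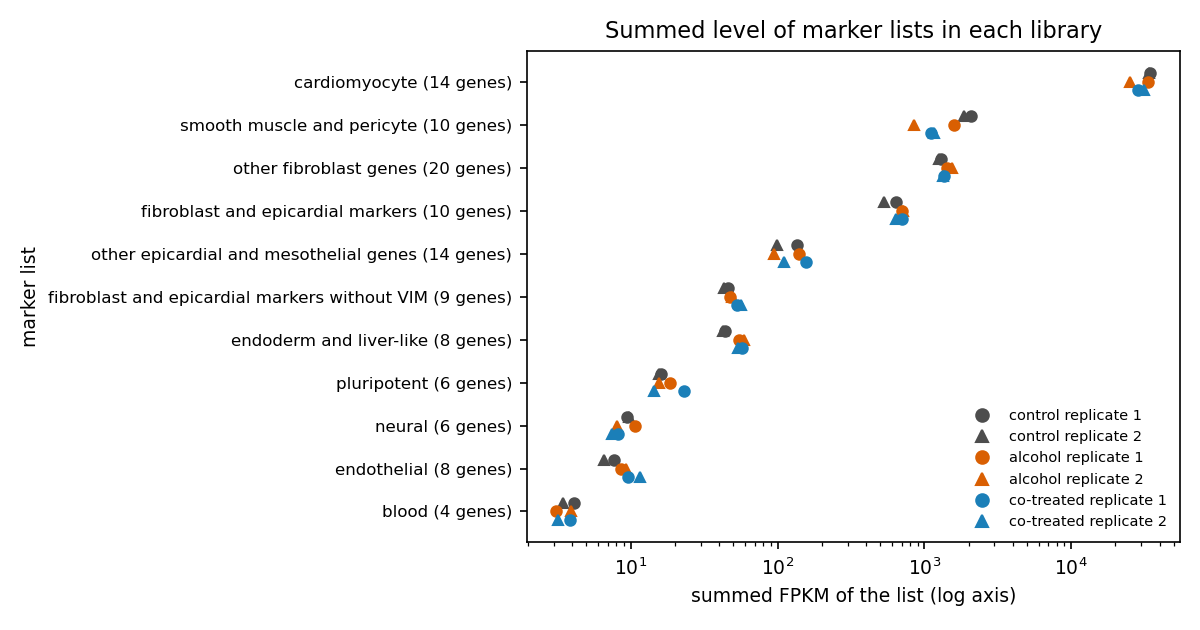
Summed FPKM, on a log axis, of each list of marker genes in the 6 libraries, with colour for the group and shape for the replicate. The cardiomyocyte list sits at 25205 to 34467 FPKM, the 10 fibroblast and epicardial markers at 533 to 718 FPKM and the same without VIM at 43.5 to 56.4 FPKM.

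The 8 genes tested did not vary as 1 group. The mean of their standardized log2 CPM was 0.14 and -0.58 in control, -0.09 and -0.15 in alcohol and 0.38 and 0.29 in co-treated cells, so control replicate 2 was the lowest library and the 2 control libraries lay on opposite sides of 0. Over the 6 libraries, which share depth and composition with the mean, Pearson's r with that mean was 0.88 for TBX18, 0.78 for LUM, 0.72 for DCN, 0.55 for VIM, 0.36 for THY1, 0.13 for PDGFRB, -0.13 for PDGFRA and -0.49 for DDR2. Each gene is part of the mean. The 5 other genes most like the mean were LOC644669, STYX, NKAP, DCP1A and ANGPT2, with r of 0.979 to 0.985 over 6 libraries, as a description only.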

How the data were processed

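RNA sequencing of 6 libraries was used, 2 per group, grouped by the treatment in the labels. Per the labels, the submitters' processing notes name HISAT2 2.0.4, Bowtie2 2.2.5, RSEM 1.2.12 and the build hg38. For each library the deposited tables give expected counts, estimates of the reads per gene of which 33.9% are not whole numbers, and FPKM, in which the authors divided these estimates by transcript length and mapped reads. A transcript length is listed too. Genes absent from a library's own table were set to 0.

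Expected counts were rounded, normalized with TMM, filtered with filterByExpr and tested with the quasi-likelihood F test of edgeR 4.0.16 (R 4.3.3), two-sided, in a single fit of the 6 libraries. Calls were made at a Benjamini-Hochberg adjusted p under 0.05 over 14926 genes. Standard errors were obtained from the fold change and its F statistic. Levels, sums and ratios were computed from the deposited FPKM. A promoter window is the 250 bases before a RefSeq start, and exon overlap was read from GENCODE 29 (GRCh38).

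The 10 genes and all gene lists were chosen with earlier results of these data known. Named are the 10 genes, the 3 most abundant and all called genes of each list, and the 5 genes most like the mean of the 8 tested. The rule also covered genes at 0 in all libraries, of which there were none. COL1A1, SEMA3D, FN1, CDH11, NES, LMNA, RYR2, MCAM, RGS5, KCNJ8, ABCC9, CDH5, TIE1, VWF, ALB and the antisense genes were named outside this rule, after their values were seen. RSPO1, OMD, KERA, EPYC, PRPH, HBG1 and HBA1 were not listed under these symbols. Alternatives were DESeq2 1.42.0, limma 3.58.1 on log2(FPKM + 1) and log2(FPKM + 0.1), RLE size factors, no filter, a minimum of 10 counts in each library, a block for the replicate number, fits of only 2 groups, fits without 1 library, sums without VIM, and CPM in place of FPKM. The edgeR test was tested on simulated data. The labels and methods name no batch.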

Additional observations from a re-analysis of the deposited data

How the results depend on the processing

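Over all alternatives the count of the 10 marker genes called stayed at 0 in each comparison, except that DESeq2 called 1, TBX18, between co-treated and control cells. The 24 log2 fold changes of the 8 genes tested were recomputed in 333 cases, of which 305 kept direction and side of the threshold, 1 passed it and 27 turned in sign, all of them in fold changes whose adjusted p was over 0.05. The cause was not tested. Of the turned values, DDR2 in co-treated against control cells was 0.0039 by limma on log2(FPKM + 0.1). Between co-treated and alcohol cells PDGFRA was -0.0024 with no filter and -0.0031 with only the 2 groups compared, and THY1 was 0.12 and 0.24 by limma on log2(FPKM + 1) and log2(FPKM + 0.1), and 0.0011 with the replicate block.

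With each library left out in turn, the log2 fold change in alcohol against control ranged from -0.57 to 0.19 for DDR2, -0.11 to 0.63 for DCN, -0.38 to 0.042 for LUM and -1.18 to 0.66 for THY1. In co-treated against control cells it ranged from -0.27 to 0.13 for PDGFRB, -0.40 to 0.35 for DDR2, -0.078 to 0.67 for DCN, -0.11 to 0.32 for LUM, -1.25 to 0.57 for THY1 and -0.017 to 0.30 for VIM. In co-treated against alcohol cells it ranged from -0.051 to 0.061 for PDGFRA, -0.067 to 0.33 for PDGFRB, -0.024 to 0.40 for DDR2, -0.22 to 0.36 for DCN and -0.55 to 0.58 for THY1. Leaving out a control library turned the sign of all 4 genes named for the first comparison and of 5 of the 6 for the second.

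The count of all genes called was 10, 54 and 2 for alcohol against control, co-treated against control and co-treated against alcohol. It was 72, 128 and 5 with DESeq2, 0, 2 and 1 by limma on log2(FPKM + 1), 2, 3 and 2 by limma on log2(FPKM + 0.1), 2, 15 and 1 with no filter, 26, 78 and 0 with at least 10 counts in every library, and 3, 154 and 4 with only the 2 groups compared. Leaving out 1 library gave 1 to 213, 1 to 162 and 1 to 22. Where this leaves a group with 1 library, that library is assumed to vary like the others. For MFAP4, COL14A1 and ACTA2 the alternatives were applied after seeing the data: each kept its direction in 14 of 14, and the call held in 7 and 6 of 14 in alcohol for MFAP4 and COL14A1, and in 9, 8 and 8 of 14 in co-treated cells, with the highest adjusted p at 0.353.

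With the replicate block the counts were 48, 136 and 5, and it added no call among the 8 genes. Between groups, r of the replicate differences was -0.02 to 0.11 over 14926 genes. Such an r cannot show whether replicates of the same number shared a batch or culture, which was not tested. The log2 ratio of the summed FPKM of the 10 genes between alcohol and control was 0.27, and 0.11 without VIM. Between co-treated and alcohol cells it was -0.09, and 0.18 without VIM. Relative to the cardiomyocyte markers the ratio was 0.52 in alcohol and 0.39 in co-treated cells against control, and 0.30 and 0.22 in CPM. Depth limits WT1, TCF21 and THY1, which have at most 21 counts.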

Other observations

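The genes most like the mean of the 8 marker genes tested were low or near the level of LUM. STYX, which encodes a phosphatase-like protein, was at 8.12 and 6.68 FPKM in control, 7.63 and 7.81 FPKM in alcohol and 8.92 and 8.69 FPKM in co-treated cells. NKAP was at 10.2 and 8.62 FPKM in control, 10.1 and 10.1 FPKM in alcohol and 12.3 and 11.4 FPKM in co-treated cells. ANGPT2, which encodes the vascular factor angiopoietin 2, was at 0.36 and 0.08 FPKM in control, 0.19 and 0.22 FPKM in alcohol and 0.61 and 0.67 FPKM in co-treated cells. In all of them control replicate 2 was the lowest library and the co-treated libraries were the highest. They were picked for this likeness, so their order is no further evidence.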
